A study of Mus musculus with 10 samples.

Results

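The immunoglobulin heavy-chain locus (Igh) on mouse chromosome 12 was described by its V, D and J segments and its constant genes. Members were chosen by symbol and position, and selected on a value above 0 FPKM in at least 1 of the 10 libraries. By this rule 134 genes of the 55359 in the table were members, with 117 of 183 V segments, 5 of 20 D segments, 4 of 4 J segments and 8 of 8 constant genes. The other 81 heavy-chain genes were listed at 0 in all 10 libraries. Just inside the limit were 8 members with a single fragment in all, and 20 members were above 0 in 1 library only.

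The RNA came from Lin- bone marrow, in 5 libraries labelled WT from Dhx9f/f and 5 labelled cKO from Dhx9f/f;MX1 mice, whose genotype label reads Dhx9 knock down. Both genotypes carry the floxed Dhx9 allele, and cKO mice also carry Cre under the Mx1 promoter, which responds to interferon and is not restricted to blood cells. In the general methods of the study, Cre was induced by injecting poly(I:C), an RNA mimic that itself triggers interferon. The sources used here do not give the age of the mice, nor whether WT mice of this experiment received poly(I:C); if they did not, its effect and that of the genotype cannot be told apart. Lin- cells were obtained with a depletion kit that removes cells bearing surface markers of mature lineages, and among such lineage genes Cd3e was at most 0.6 FPKM in all 10 libraries. Depth, read from the steps of the values, was 15.0 to 18.7 M fragments in WT libraries and 13.8 to 17.2 M in those labelled cKO.

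A heavy-chain gene is assembled in developing B cells by joining a D to a J segment and then a V segment to DJ, and the joined exon is spliced to a constant gene. The RAG recombinase cuts at recombination signal sequences, made of a heptamer and a nonamer held apart by a short or a long spacer, and joins a short-spacer signal to a long-spacer one. Unrearranged segments are also transcribed before they are joined, and a germline transcript known as mu0 starts near the D segment closest to the J segments.

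The signals are shown for the J segments and Ighd4-1, which were called lower, for Ighd2-3 as a D segment read once, and for Ighv7-1, called lower, and Ighv11-2, not called. All members lie on the minus strand between 113218450 and 115973713 of chromosome 12 (GRCm39). In the J segments the signal precedes the coding bases, in V segments it follows the last 20 bases shown, and in D segments there is a signal on either side. Capitals mark the nonamer and heptamer positions, and lower case marks the spacers and the segment. The gene read as Ighj2 is 100 bases long, from 113393088 to 113393187, so its values also cover the signal shown.
Ighj1, chr12:113393401-113393491: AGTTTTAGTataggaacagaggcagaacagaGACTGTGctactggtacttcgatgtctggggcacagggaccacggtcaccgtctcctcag
Ighj2, chr12:113393088-113393174: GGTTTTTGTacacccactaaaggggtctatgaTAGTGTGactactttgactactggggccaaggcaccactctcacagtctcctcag
Ighj3, chr12:113392705-113392791: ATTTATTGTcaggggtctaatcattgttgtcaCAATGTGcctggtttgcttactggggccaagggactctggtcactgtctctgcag
Ighj4, chr12:113392134-113392225: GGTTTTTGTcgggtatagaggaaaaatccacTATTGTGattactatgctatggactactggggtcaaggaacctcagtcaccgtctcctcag
Ighd4-1, chr12:113394120-113394186: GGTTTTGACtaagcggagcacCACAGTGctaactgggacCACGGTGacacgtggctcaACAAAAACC
Ighd2-3, chr12:113438992-113439064: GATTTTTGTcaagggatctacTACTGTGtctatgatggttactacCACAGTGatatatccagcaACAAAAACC
Ighv7-1, chr12:113859989-113860047: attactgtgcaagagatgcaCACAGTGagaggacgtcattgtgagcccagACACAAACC
Ighv11-2, chr12:114011822-114011880: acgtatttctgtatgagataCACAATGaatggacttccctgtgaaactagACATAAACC

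Matches were counted against the heptamer CACAGTG and the nonamer ACAAAAACC, read as their reverse complements before a segment. Spacer lengths were set beforehand and not measured. For D segments 12 bases were used, and for J and V segments 22 or 23, whichever gave more nonamer matches. The heptamer after Ighv7-1 matched at 7 of 7 positions and that after Ighv11-2 at 6, and the nonamer of each matched at 8 of 9. Of the V genes above 0 that are not annotated as pseudogenes, 74 of 102 had the exact heptamer directly after the segment, against 7 of 11 such genes listed at 0 and 25 of 70 V pseudogenes. The octamer ATGCAAAT, a known element of immunoglobulin promoters, was searched on both strands in the 250 bases before each gene start. It was present for 93 of 117 V members (79.5%), for 34 of 66 V segments listed at 0 (51.5%) and for 1111 of 54745 genes of the table (2.03%). Leaving out pseudogenes, which were 55 of those 66, it was present for 83 of 102 V members (81.4%) and for 7 of 11 V genes listed at 0 (63.6%). These matches are descriptions of the letters in those windows.

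The labels were held against the targeted gene. Dhx9 in WT libraries 1 to 5 had values of 68.96, 72.42, 72.18, 69.55 and 65.43 FPKM, and those labelled cKO had 130.82, 148.8, 131.25, 156.49 and 131.98 FPKM. Every library labelled cKO lay above every WT library, so the gene goes against the labels, and each direction below rests on those labels (exact two-sided permutation test, p = 0.00794, the lowest value possible with 5 libraries a group). The paper reports reduced DHX9 in bone marrow cells of Dhx9f/f;MX1 mice by qRT-PCR and western blot, which are other measures than FPKM. Values per gene do not show which exons were read. Spi1 and Xbp1, which the paper reports as lower in cKO cells by RNA-seq and qRT-PCR, were called lower under that label. Their log2 fold changes were -1.73 and -1.24 (limma), and whether labels were exchanged was not tested. Xist, which is transcribed from the inactive X, had 0.07, 0.04, 99.19, 121.04 and 127.76 FPKM in WT 1 to 5, against 0.09 FPKM or less with the cKO label. Ddx3y, on the Y chromosome, had 27.62, 25.38, 0.05, 0 and 0 FPKM in WT 1 to 5 and 19.66 FPKM or more with the cKO label. WT libraries 3 to 5 thus stood apart in sex from the other 7. For the members named by rule, results are given with a sex covariate and without those 3 libraries where a call changed. No cKO-labelled library shared the sex of WT 3 to 5. Both alternatives therefore compare the cKO-labelled libraries with WT 1 and WT 2 alone. They give the same fold changes and are not separate checks. Calls of list genes, of neighbouring genes and of V segments outside that rule were not examined in those ways.

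Summed over the locus, heavy-chain fragments were fewer in the cKO-labelled libraries. Sums are given as FPM, fragments per 1000000 fragments of the library. Constant genes had 286, 297, 255, 234 and 299 FPM in WT libraries 1 to 5 and 42.2, 24.2, 80.6, 9.24 and 159.7 in libraries 1 to 5 labelled cKO. All cKO-labelled libraries lay below all WT libraries, but they were uneven, with number 5 highest and number 4 lowest. V segments had 58.4, 55.6, 44.0, 34.6 and 55.8 FPM in WT and 12.7, 7.04, 23.4, 4.09 and 43.5 in the cKO-labelled libraries. Here the groups overlapped, because number 5 labelled cKO lay above WT 4. J segments had 12.8, 7.0, 6.53, 8.98 and 5.32 FPM in WT and 0.0723, 0.0582, 0.312, 0 and 1.19 in the cKO-labelled libraries, with no overlap. Of D segments, 52 fragments were read in WT and 1 in the cKO-labelled libraries. The ratio of the WT mean to the mean of the cKO-labelled libraries was 2.74 for V, 4.34 for constant genes and 24.9 for J, and without number 5 labelled cKO it was 4.21, 7.02 and 73.6. Group means were 49.7 ± 10.1 and 18.1 ± 16 FPM for V, 274 ± 28.6 and 63.2 ± 60.2 FPM for constant genes and 8.14 ± 2.95 and 0.327 ± 0.499 FPM for J (SD, n = 5 each). Without number 5 the means of the cKO-labelled libraries were 11.8, 39.1 and 0.111 FPM. In bulk RNA, fewer cells of a type and less RNA per cell cannot be told apart.

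**Figure D1:**
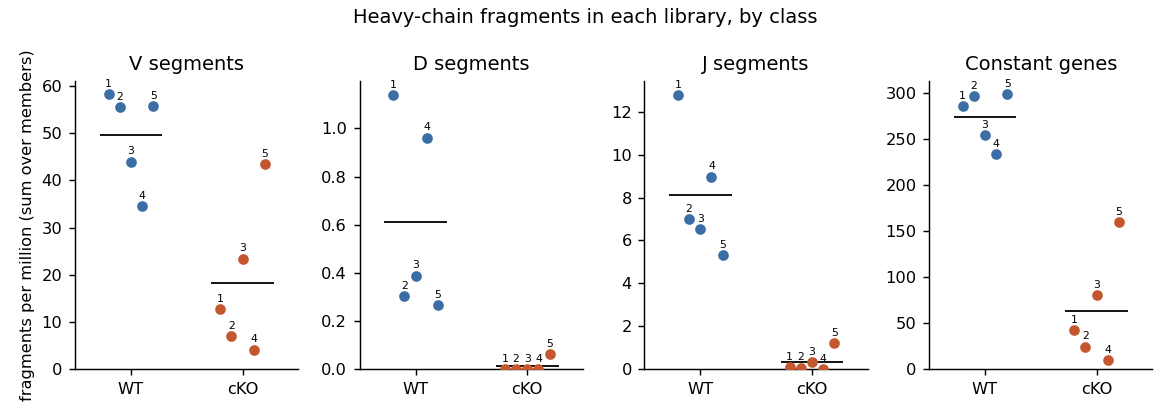
FPM summed over the members of each class, for each library (points, numbered by replicate) with the group mean (line), WT in blue and cKO-labelled libraries in orange. The axis starts at 0 in each panel; J segments lie between 5.32 and 12.8 in WT and at or below 1.19 in the cKO-labelled libraries.

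Single genes were compared with limma on log2(FPKM + 0.1). The 18742 genes averaging 0.1 FPKM or more were tested, and a call needed at least a 2-fold change with adjusted p under 0.05. The log2 fold change of a gene at or near 0 depends on the 0.1 added. Of the members, 110 passed the limit on the mean and 24 did not, the latter being 23 V segments and Ighe. A member that is read in WT alone passes only through that group, so the counts below are descriptions. Among the 110, 31 were called lower and 0 higher, where 16.8% of all genes tested were called lower and 4.60% higher. Of the same 110, 42 had a negative and 0 a positive change at an unadjusted p under 0.05 in limma, against 32.3% and 20% of all genes tested. The median log2 fold change of the 110 was -1.45, and that of all genes tested was -0.11. With members at 0 in a whole group set to the bound that 3 fragments allow, and 4 D segments at or under that floor left out, it was -1.49 for 106 members, and -1.44 for the 94 V segments. In 17 of the 110 tested, all cKO-labelled libraries lay below all WT libraries, as in 21.6% of all genes tested, and in 0 above, against 10.6%. Of the classes, 23 of 94 V segments, 1 of 5 D segments, 4 of 4 J segments and 3 of 7 constant genes were called lower.

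D segments are the shortest members, and 4 of the 5 were above 0 in 1 library only. Ighd4-1 (ENSMUSG00000094028), the D segment closest to the J segments, is 11 bases long and lies at 113394148 to 113394158. WT libraries 1 to 5 had 103.69, 16.45, 23.52, 82.6 and 24.18 FPKM, from 19, 3, 4, 17 and 4 fragments, and it was listed at 0 in all 5 cKO-labelled libraries. WT 1 and WT 4 were well above the other 3, and the groups did not overlap. Against a floor of 3 fragments over the group labelled cKO, it was at least 14.8-fold lower there. It passed the limit on the mean through WT alone, so its call is a description. Of the other D segments, Ighd2-8 had 2 fragments in WT 3, Ighd6-2 had 2 in WT 2, Ighd2-3 had 1 in WT 4 and Ighd1-1 had 1 in number 5 labelled cKO. No difference was detectable for these 4 at this depth. Of the 52 D fragments in WT, 47 were of Ighd4-1.

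J segments, which end the variable exon and carry the splice site to the constant gene, were called lower in all 4 cases. Ighj1 was at 64.56, 30.72, 29.29, 51.43 and 31.36 FPKM in WT and at 0, 0, 1.18, 0 and 7.11 FPKM in the cKO-labelled libraries. Ighj2 was at 32.42, 16.28, 15.52, 24.59 and 13.96 FPKM in WT, and in the cKO-labelled libraries it was read in number 3 alone, at 1.25 FPKM from 2 fragments. In both, WT 1 and WT 4 were the highest, as for Ighd4-1, and the groups did not overlap. Ighj3 was at 47.52, 23.87, 33.69, 24.5 and 9.7 FPKM in WT and at 0, 1.21, 1.3, 0 and 10.47 FPKM in the cKO-labelled libraries. Ighj4 was at 72.26, 48.02, 33.54, 48.5 and 33.24 FPKM in WT and at 1.34, 0, 1.15, 0 and 5.82 FPKM in the cKO-labelled libraries. For Ighj3 the groups overlapped, since number 5 labelled cKO, with 8 fragments, exceeded WT 5, with 7. The log2 fold changes were -6.65 for Ighj1, -6.86 for Ighj2, -5.10 for Ighj3 and -6.15 for Ighj4, with adjusted p from 6.99e-05 to 0.00432 (limma, Benjamini-Hochberg). These sizes depend on the scale, since with FPM in place of FPKM they were -3.86, -4.13, -2.91 and -3.96, and with a pseudocount of 0.01 they were -8.67, -9.53, -6.47 and -7.52. Of the fragments in the group labelled cKO, number 5 held 6 of 7 for Ighj1, 8 of 10 for Ighj3 and 5 of 7 for Ighj4. Without WT 3 to 5, an alternative chosen after seeing the data, Ighj3 was not called (log2 fold change -5.55, adjusted p = 0.0644, limma, the highest of its alternatives, from 5.96e-04), and the other 3 were. In all, 679 J fragments were read in WT and 26 in the cKO-labelled libraries, 19 of these in number 5.

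**Figure D2:**
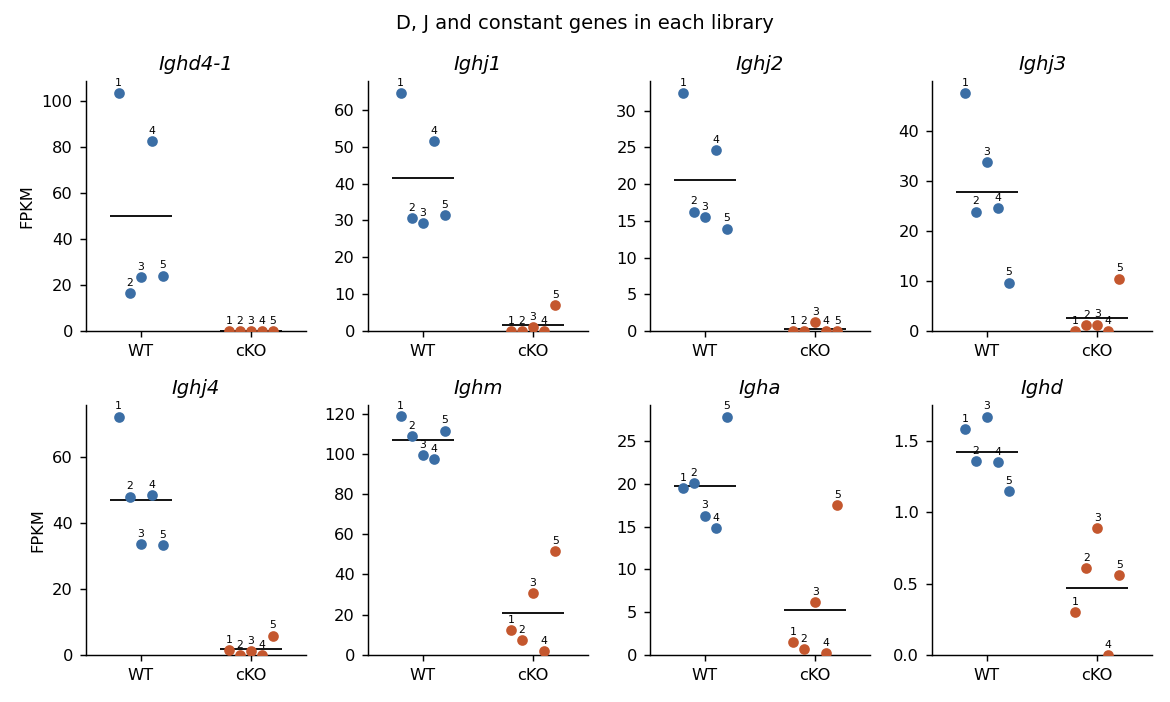
FPKM of Ighd4-1, the J segments and 3 constant genes in each library (points, numbered by replicate) with the group mean (line). Each panel has its own axis from 0; Ighd4-1 is at 0 in all 5 cKO-labelled libraries, while number 5 with this label reaches 17.52 FPKM for Igha, within the WT range of 14.8 to 27.86.

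Among the constant genes, Ighm had the most fragments. Ighm (ENSMUSG00000076617, chr12:113382178-113386350) encodes the chain of IgM, the first class made in B-cell development. It was at 118.53, 108.65, 99.19, 97.48 and 111.54 FPKM in WT and at 12.22, 7.46, 30.79, 1.81 and 51.69 FPKM in the cKO-labelled libraries. WT libraries were close to each other and those labelled cKO were spread widely below them (log2 fold change -3.12, standard error 0.717, adjusted p = 0.00474, limma with Benjamini-Hochberg). Ighd, the delta chain made by splicing in mature naive B cells, was at 1.58, 1.36, 1.67, 1.35 and 1.15 FPKM in WT and at 0.3, 0.61, 0.89, 0 and 0.56 FPKM in the cKO-labelled libraries. It was called lower with no overlap (log2 fold change -1.75, adjusted p = 0.0200, limma), but not after quantile normalization (-1.33, 0.0742), with a sex covariate (-1.80, 0.0905), without WT 3 to 5 (-1.80, 0.165) or with pseudocounts of 0.01 or 1, and over all alternatives adjusted p ran from 0.00307 to 0.165. Igha, the class of mucosal antibodies, was at 19.46, 20.12, 16.29, 14.8 and 27.86 FPKM in WT and at 1.49, 0.7, 6.14, 0.2 and 17.52 FPKM in the cKO-labelled libraries. It was called lower (log2 fold change -3.19, adjusted p = 0.0147, limma), although number 5 with this label lay within the WT range. With the sex covariate (0.0782) or without WT 3 to 5 Igha was not called, at a log2 fold change of -3.24 in both, and over all alternatives its adjusted p in limma ran from 0.00166 to 0.150.

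The IgG genes, reached by class switching in activated B cells, were not called. Ighg2b was at 1.77, 8.65, 5.89, 2.3 and 2.18 FPKM in WT and at 2.56, 1.74, 0.86, 0.58 and 3.92 FPKM in the cKO-labelled libraries. Ighg2c was at 1.86, 7.41, 2.2, 0.77 and 2.26 FPKM in WT and at 1.69, 0.7, 0.05, 1.97 and 1.8 FPKM in the cKO-labelled libraries. In both genes WT 2 was the highest library and the groups overlapped. Ighg1 was at 0.05, 0.21, 0.4, 0.39 and 1.33 FPKM in WT and at 1.64, 0.58, 0.72, 0.44 and 0.61 FPKM in the cKO-labelled libraries, and was the constant gene with a positive log2 fold change (0.90, adjusted p = 0.205, limma). With a sex covariate it was called higher (log2 fold change 1.93, adjusted p = 0.0292, limma), as without WT 5 (1.33, 0.0427) and without WT 3 to 5 (1.93, 0.0390), and over all alternatives adjusted p ran from 0.0292 to 0.430. Whether the change of any IgG gene differed from that of Ighm was not tested. Ighg3 had 49 fragments in WT, from WT 2 and WT 3, and 17 in the cKO-labelled libraries, and Ighe had 5 and 3. With the sex covariate 1 constant gene was called lower in place of 3, and without WT 3 to 5 it was 0, with Ighm at a log2 fold change of -3.20 (adjusted p = 0.0863, limma, the highest of its alternatives, from 0.00141).

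V segments supply most of the antigen-binding surface, and they varied in both level and difference. Over all 10 libraries Ighv11-2 had the most fragments of any V member, 303 in WT and 249 in the cKO-labelled libraries. In WT alone Ighv7-1 had more, with 369. Ighv11-2 was at 9.11, 5.23, 13.33, 7.42 and 4.9 FPKM in WT and at 4.86, 2.78, 9.73, 2.18 and 14.85 FPKM in the cKO-labelled libraries. The groups overlapped and the gene was not called (log2 fold change -0.47, standard error 0.501, adjusted p = 0.473, limma). Ighv11-2 is known from B-1 cells that bind phosphatidylcholine, as is Ighv12-3. Ighv12-3, named here after its values were seen, had 1, 4, 6, 0 and 1 fragments in WT and 5, 7, 9, 1 and 6 in the cKO-labelled libraries, and was not called (log2 fold change 1.36, adjusted p = 0.132, limma). Ighv11-2 is 98.9% identical to Ighv11-1, so its fragments may be split between these copies or lost.

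The other 9 of the 10 V segments with the most fragments had negative log2 fold changes. Of the 9, 5 were called lower, beside 16.8% of all genes tested. The ranking pools 4061 V fragments of WT with 1426 of the cKO-labelled libraries, so it favours segments high in WT. Ighv7-1 was at 11.08, 18.44, 5.7, 7.95 and 19.23 FPKM in WT and at 1.79, 0, 5.49, 0.18 and 4.5 FPKM in the cKO-labelled libraries, with no overlap (log2 fold change -3.41, adjusted p = 0.0194, limma). Ighv4-1 was at 1.45, 4.81, 4.37, 5.55 and 2.25 FPKM in WT, and in the cKO-labelled libraries it was read in number 5 alone, at 0.61 FPKM (log2 fold change -4.52, adjusted p = 2.20e-04, limma). Of the 10 V segments with the most fragments, Ighv7-1, Ighv6-3, Ighv3-6, Ighv1-26 and Ighv4-1 were called lower. Those not called were Ighv11-2, Ighv10-3, Ighv1-78, Ighv10-1 and Ighv9-3. With a sex covariate, Ighv7-1 (log2 fold change -3.76, adjusted p = 0.0701, limma, range over alternatives 0.00677 to 0.133) and Ighv1-26 (-2.83, 0.0646, range 0.00113 to 0.134) were not called. Without WT 3 to 5 these 2, at the same fold changes, and Ighv6-3 (-3.11, 0.0529, range from 0.00142) were not called by limma. Ighv10-3 was called lower without number 3 labelled cKO (0.0138, range to 0.236), and Ighv1-78 (0.0479, range to 0.172) and Ighv10-1 (0.0283, range to 0.304) without number 5. Ighv3-5, outside this rule and chosen after its values were seen, had 17, 12, 9, 5 and 1 fragments in WT and 0 in all cKO-labelled libraries, at least 13.9-fold lower against the same floor.

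Several V segments were high in a single library. Ighv10-3 had 91 fragments in WT 1 and 57 in number 3 labelled cKO, against at most 27 in any other library. Ighv1-78 had 125 fragments in WT 2, 13.6% of the V fragments of that library (95% exact interval 11.4% to 15.9%), against at most 24 elsewhere. Ighv1-82, chosen after its values were seen, led number 2 labelled cKO with 24 of 121 V fragments. In the other 4 libraries with this label, and in WT 3 and WT 4, Ighv11-2 led. Intervals and floors cover counting error only.

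**Figure D3:**
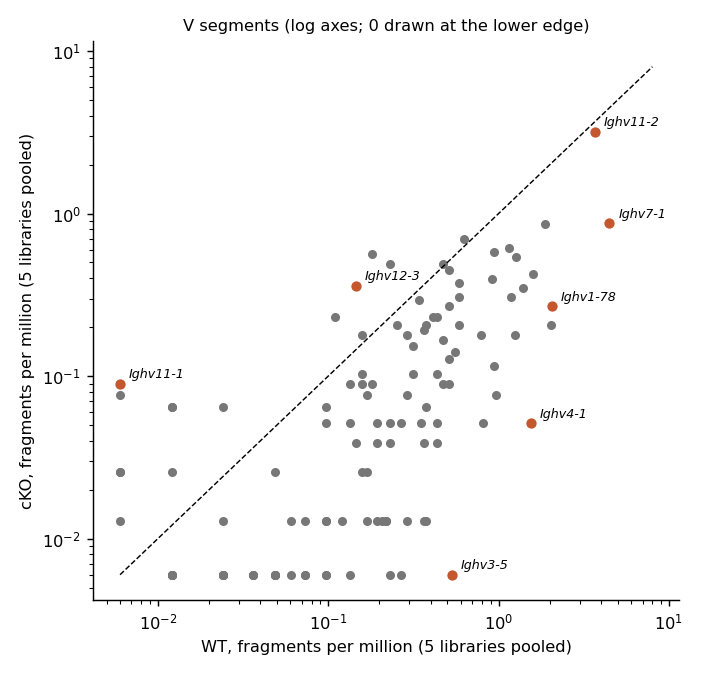
FPM of each V member (points), 5 WT libraries pooled against 5 cKO-labelled libraries pooled, on log axes with 0 drawn at the lower edge and equality as a dashed line. Of 117 V members, 101 lie on or below the line and 16 above it; Ighv11-2 is near the line and Ighv3-5 at the lower edge.

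Of the 117 V members, 26 had no fragment in the cKO-labelled libraries and 5 had none in WT. The 16 V members with a higher FPM in the pooled cKO-labelled libraries were often carried by 1 library, as with Ighv1-7 (37 of 44 fragments from number 5) and Ighv1-22 (33 of 38), both named after their values were seen. Near-identical copies limit what single V values mean, since 55 of the 117 V members have another V segment at 95% identity or more. The 5 of 15 families with the most WT fragments, a choice made after the values were seen, were Ighv1 with 1609 in WT and 470 in the cKO-labelled libraries, Ighv7 with 449 and 99, Ighv11 with 303 and 256, Ighv5 with 269 and 182 and Ighv10 with 259 and 109. The ratio of WT to the other group per unit of depth was 3.24, 4.29, 1.12, 1.40 and 2.25 in that order. Without number 5 labelled cKO, which held 123 of the 182 Ighv5 fragments, it was 5.13, 5.54, 1.63, 3.43 and 2.32. Without WT 1 it was 0.970 for Ighv5 and 1.47 for Ighv10, and without WT 3 it was 0.945 for Ighv11. For Ighv10 it was 4.98 without number 3 labelled cKO. Over the 13 families with more than 3 fragments in each group the ratio ran from 0.405 for Ighv12, with 12 and 28 fragments, to 30.2 for Ighv4, with 128 and 4, all 4 of them from number 5. Without WT 3 the ratio for Ighv12 was 0.249. Ighv11 thus made up 7.46% of V fragments in WT and 18.0% in the cKO-labelled libraries.

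Position along the locus was examined by dividing the V members into 4 groups by distance from the D segments. The 30 nearest, 96.3 to 671 kb away, had 1582 fragments in WT and 696 in the cKO-labelled libraries, a ratio of 2.15 per unit of depth. The next groups had ratios of 2.58, 3.82 and 3.82, the last lying 1726 to 2518 kb away with 829 and 205 fragments. Ighv11-2 lies in the nearest group and held 249 of its 696 fragments in the cKO-labelled libraries, and without this segment the ratio was 2.70. Without number 5 labelled cKO the 4 ratios were 3.55, 3.66, 6.60 and 5.2. When Ighv11-2 was left out as well, the ratio of the nearest group was 4.93, close to that of the farthest. With each library left out in turn, both nearer groups had lower ratios than both farther groups, a difference that was not tested. Of the 3 V members nearest the D segments, Ighv5-2 was below the limit on the mean and Ighv2-2 and Ighv5-4 were not called by limma. The 3 farthest, Ighv1-83, Ighv1-84 and Ighv1-85, were not called either, with adjusted p of 0.0722, 0.0779 and 0.0892 in limma. Ighv1-83 was called with the replicate number as a block (0.0290), without WT 1 (0.0147) or without number 3 labelled cKO (0.0348), Ighv1-84 without WT 1 (0.0352) or WT 3 (0.0324), and Ighv1-85 without WT 4 (0.0220) or number 5 labelled cKO (0.0334). Ighv1-84 had 19 fragments in WT, 14 of them in WT 5, and 0 in all cKO-labelled libraries. Against a floor of 3 fragments it was at least 5.99-fold lower there. It passed the limit on the mean through WT alone, so its calls are descriptions.

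**Figure D4:**
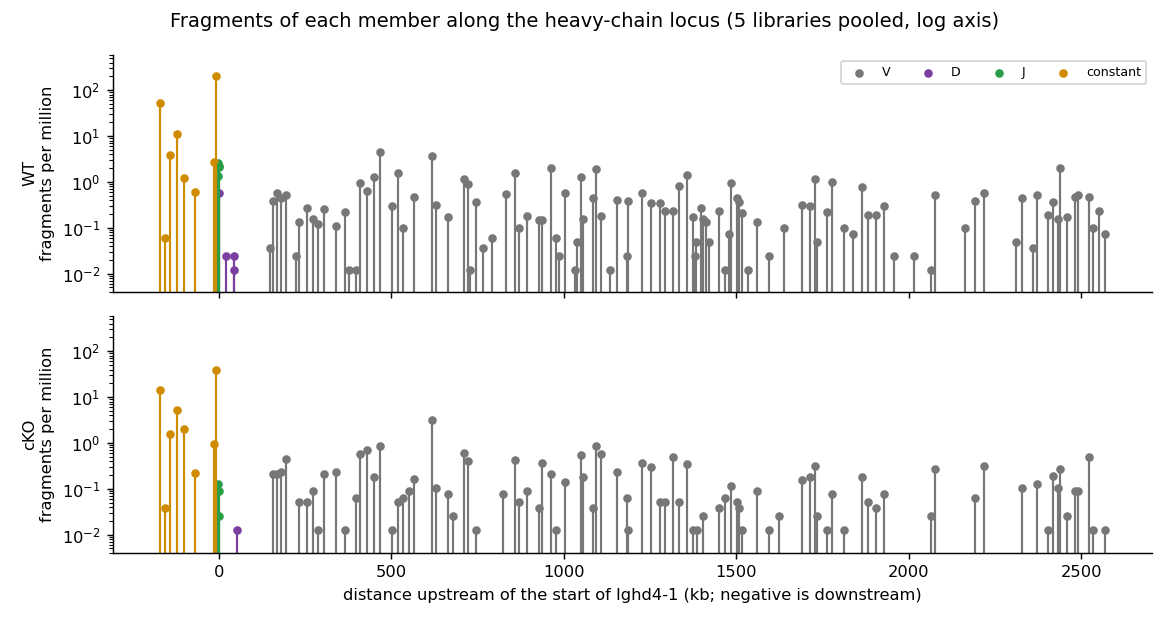
FPM of each member read in the group, 5 libraries pooled, on a log axis against distance upstream of the start of Ighd4-1 in kb, with WT above and the cKO-labelled libraries below, and colours for V, D, J and constant. Constant genes lie downstream at negative distances and hold most fragments in both groups. The J members next to 0 are much lower in the lower panel, where Ighd1-1 is the only D member drawn.

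The make-up of the heavy-chain fragments was compared within each library, where depth cancels. J segments made up 18.0%, 11.2%, 12.9%, 20.6% and 8.71% of J and V fragments in WT and 0.565%, 0.820%, 1.32%, 0% and 2.67% in the cKO-labelled libraries. The groups did not overlap, and for the 0 of 61 fragments of number 4 labelled cKO the 95% exact interval reached 5.87%. V segments made up 12.9% to 17.0% of V and constant fragments in WT and 21.4% to 30.7% in the cKO-labelled libraries. Ighv11-2 made up 4.05% to 14% of V fragments in WT and 15.7% to 24.6% in the cKO-labelled libraries, and the intervals of WT 3 and WT 4 overlapped some of the latter. Ighm made up 69.0% to 78.5% of constant fragments in WT and 54.6%, 58.2%, 72.1%, 37.0% and 61.0% in the cKO-labelled libraries, where number 3 lay within the WT range. These shares were chosen after the values were seen and were not tested.

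**Figure D5:**
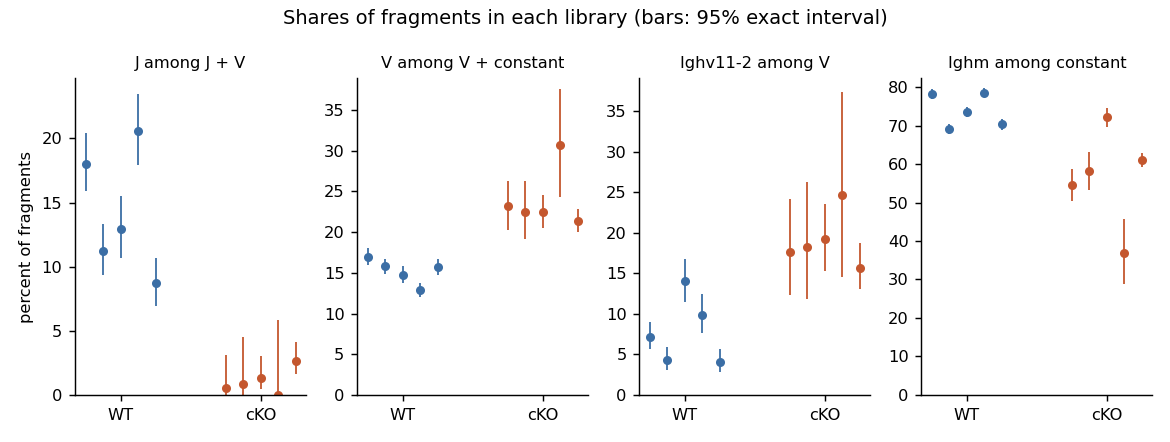
Shares of fragments in percent for each library (points in replicate order, WT in blue, cKO-labelled libraries in orange) with 95% exact (Clopper-Pearson) intervals. J among J and V lies between 8.71% and 20.6% in WT and at or below 2.67% in the cKO-labelled libraries; V among V and constant lies higher in the latter.

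Genes that act on or with the heavy chain were taken from lists. Of 15 genes of V(D)J recombination, 3 were called lower and 0 were higher, at a median log2 fold change of -0.23 against -0.11 for all genes tested. These 3 were Dntt, Rag1 and Rag2, and at an unadjusted p under 0.05 in limma 7 were lower and 2 higher. The share called lower over all genes tested was 16.8%, and at an unadjusted p under 0.05 it was 32.3% lower and 20% higher. Dntt, the polymerase that adds bases at the joints, was at 19.28, 19.31, 16.42, 20.92 and 17.98 FPKM in WT and at 0, 0, 0.41, 0 and 1.56 FPKM in the cKO-labelled libraries. Rag2, a subunit of the recombinase, was at 0.54 to 0.91 FPKM in WT and at 0, 0, 0.05, 0 and 0.33 FPKM in the cKO-labelled libraries (adjusted p = 6.89e-04, limma). Rag1 was at 0.39 to 1.06 FPKM in WT and was read in numbers 3 and 5 labelled cKO, at 0.32 and 0.56 FPKM. The cKO-labelled libraries that had Dntt and Rag1 were thus the same 2 that had the most J fragments.

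Of 16 B-lineage transcription factors, 14 were tested and 4 were called lower, with a median of -0.86 and, at an unadjusted p under 0.05 in limma, 11 lower and 3 higher, beside 16.8% of all genes tested called lower and, unadjusted, 32.3% lower and 20% higher. Ebf1 and Pax5, which set B-cell identity, were low throughout, with Pax5 at 0.284 ± 0.141 FPKM in WT and 0.104 ± 0.107 in the cKO-labelled libraries (SD, n = 5 each) and Ebf1 below the limit on the mean. Those called were Spi1, Irf4, Irf8 and Runx1, which also act in myeloid cells. Of 13 genes of the pre-B and B-cell receptors, 7 were called lower and 0 were higher, beside 16.8% and 4.60% of all genes tested, at a median of -1.09. Igll1, part of the surrogate light chain, was at 0.478 ± 0.126 FPKM in WT and 0.0820 ± 0.119 in the cKO-labelled libraries (SD, n = 5 each) and was called. Vpreb1 (Vpreb1a in the annotation) was at 0.464 ± 0.197 and 0.388 ± 0.463 FPKM (SD, n = 5 each) and Cd79a at 1.5 ± 0.708 and 0.826 ± 0.672 FPKM (SD, n = 5 each), and neither was called. Of 11 B-lineage surface genes, 9 were tested, 4 were called lower and 1 was higher, beside the same shares, at a median of -0.82. The higher one was Cd24a, also a surface protein of red cell precursors.

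Light chain and plasma cell genes were set beside the constant genes. Igkc, the kappa constant gene, was at 98.96, 129.11, 94.11, 65.6 and 120.85 FPKM in WT and at 24.31, 16.4, 42.98, 11.33 and 86.19 FPKM in the cKO-labelled libraries. It was called lower (log2 fold change -1.83, adjusted p = 0.00865, limma), with number 5 inside the WT range. The ratio of Igkc to Ighm in FPKM was 0.673 to 1.19 in WT and 1.99, 2.20, 1.40, 6.26 and 1.67 in the cKO-labelled libraries, so Ighm was lower relative to Igkc in each of the latter. Of 15 light chain constant and J genes, 10 were tested, 2 were called lower and 0 were higher, beside 16.8% and 4.60% of all genes tested, at a median of -1.54, and Iglc4, Iglj2, Iglj3, Iglj3p and Iglj4 were at 0. Of 8 plasma cell genes, 3 were called lower and 0 were higher, beside the same shares, at a median of -1.01. Jchain, which links IgM and IgA into polymers, was at 14.26, 16.51, 10.61, 9.19 and 14.53 FPKM in WT and at 1.03, 1.09, 3.32, 0.32 and 8.09 FPKM in the cKO-labelled libraries. The ratio of Jchain to Ighm was 0.0943 to 0.152 in WT and 0.0843 to 0.177 in the cKO-labelled libraries, with overlap. Summed over the list, whose most abundant gene was Xbp1, plasma cell genes were at 53.1 to 74.2 FPKM in WT and 17.1 to 36.7 FPKM in the cKO-labelled libraries.

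In the lists of receptor, light chain, plasma cell, plasmacytoid, T, NK and monocyte genes, 0 were called higher and 0 had a positive change at an unadjusted p under 0.05 in limma. Markers of other cells moved as well, and their part in the heavy-chain differences was not tested. The counts of these lists stand beside 16.8% of all genes tested called lower and 4.60% called higher. All 6 monocyte and macrophage genes were called lower (median -4.35), with summed levels of 1444, 840.2, 815, 1221 and 1456 FPKM in WT and 59.0, 15.2, 146, 6.60 and 236 FPKM in the cKO-labelled libraries. Lyz2 was the highest of them except in number 4 labelled cKO, at 2.09 FPKM against 3.2 for Ly6c2. Among the cKO-labelled libraries the order of these sums, from number 5 through 3, 1 and 2 to 4, was also the order of the constant-gene fragments. All 7 NK cell genes were called lower (median -2.50), at 79.9 to 103 FPKM in WT and 6.92 to 26.4 FPKM in the cKO-labelled libraries, mostly from Nkg7. Of 8 T cell genes, 3 were called lower and 0 higher (median -0.71), with summed levels of 3.95 to 5.49 FPKM in WT and 0.690 to 4.79 FPKM in the cKO-labelled libraries. Lck was the highest in WT and in number 1 labelled cKO, and Cd3d or Cd3g in numbers 2 to 5 with this label. Of 7 plasmacytoid dendritic cell genes, 5 were tested and 2 were called lower (median -0.85), at 58.7 to 64.4 FPKM in WT and 39.5 to 77.8 FPKM in the cKO-labelled libraries, mostly from Bst2. Their defining gene Siglech was at 1.91 to 3.38 FPKM in WT and 0, 0, 0.37, 0 and 0.24 FPKM in the cKO-labelled libraries, again read in numbers 3 and 5. Of 8 erythroid genes, 5 were called higher and 0 lower (median 1.63). At an unadjusted p under 0.05 in limma, 8 were higher and 0 lower. Summed levels were 426 to 1301 FPKM in WT and 2805, 2808, 2721, 2455 and 1783 FPKM in the cKO-labelled libraries, lowest in number 5. The highest gene of this list was Hba-a1 in every WT library and Hbb-bs in every cKO-labelled library.

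Genes around the heavy-chain locus were read as a comparison by position. Of 29 protein-coding genes within 1 Mb of the locus, 25 were tested, 7 were called lower and 3 were higher, beside 16.8% and 4.60% of all genes tested, at a median log2 fold change of -0.32 against -0.11 for all genes tested. The 3 with the highest mean level over all 10 libraries were Akt1, Mta1 and Esyt2. Among neighbours called lower, Adss1 (43.8 FPKM), Crip1 (31.9 FPKM) and Pld4 (29.3 FPKM) had higher means in WT than Esyt2. Akt1 (49.2 ± 1.9 FPKM in WT, 57.8 ± 3.74 in the cKO-labelled libraries) and Mta1 (39.2 ± 1.95 and 62.1 ± 7.89 FPKM) did not reach 2-fold (SD, n = 5 each), and Esyt2 was called higher, at 17.6 ± 1.12 and 36.3 ± 7.38 FPKM (SD, n = 5 each). Inside the locus, Adam6a was listed at 0 in all 10 libraries, and Adam6b was at 0.09 FPKM in WT 1, 0.03 FPKM in WT 3 and 0 in the other libraries.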

How the data were processed

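The authors trimmed reads, aligned them to GRCm39 and deposited 1 FPKM value (fragments per kilobase of exon and library depth) per gene and library; the submitters' processing notes name cutadapt 1.9.1, HISAT2 2.0.1 and HTSeq 0.6.1. Annotation, gene lengths and counting mode are not given in the sources used here. Fragments touching several features, or near-identical V segments, may be uncounted. Identifiers were matched to GENCODE (54749 of 55359). Depth came from the FPKM step of single-transcript genes, and 96.7% to 97.2% of low values in each library were whole within 0.2. Fragments of a member are its FPKM times exon length and depth, and all 653 member values of up to 40 fragments came out whole.

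The libraries were compared with limma 3.58.1 in R 4.3.3 on log2(FPKM + 0.1), with a trend and Benjamini-Hochberg adjustment over the 18742 genes averaging 0.1 FPKM or more. FPKM are not counts, so no count test was run. Sums and shares used Python 3.11.15, with Clopper-Pearson intervals from scipy 1.17.1.

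Members and lists were chosen with earlier results of these data known. Named were all D, J and constant members, the 10 V members with the most fragments, the 3 nearest the D segments and the 3 farthest, set genes of each list, and the 3 neighbours of highest mean. Alternatives were the pseudocount, filter, scaling, FPM, trend, replicate block, sex covariate, adjusted p alone, libraries left out and unrounded fragments. The labels do not say that replicates are separate mice. In the statistics section of the paper, n counts biological replicates taken from individual mice unless stated otherwise. The p-values here measure the spread between these samples.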

Additional observations from a re-analysis of the deposited data

Results flagged for a closer look

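Within each label, a library was looked for whose gap to the nearest of the others exceeded 0.71 of the group's whole range. Of 67 groups of 5 libraries, each a named member or a class sum, 24 had such a library, where chance flags about 1 in 20 groups (3.35 here). Members read together and members with 1 or 2 fragments make these far from separate events, and no explanation was tested.

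Of these 24, 9 were cKO replicate 5. It was at 5.82 FPKM for Ighj4 against 0 to 1.34 in the other libraries of its label, at 10.47 for Ighj3 against 0 to 1.3, and at 7.11 for Ighj1 against 0 to 1.18. Summed J fragments were 1.19 FPM in it against 0 to 0.312, and D fragments 0.0628 against 0. It was also at 3.4 FPKM for Ighv1-26 against 0 to 0.76, at 0.61 for Ighv4-1, 2.73 for Ighd1-1 and 0.18 for Ighv1-85, each at 0 in the other 4. The library labelled cKO 3 was at 9.42 FPKM for Ighv10-3 against 0 to 1.72, and at 1.25 for Ighj2 and 0.18 for Ighv1-83, each at 0 in the other 4. The library labelled cKO 1 stood out in constant genes, at 1.64 FPKM for Ighg1 against 0.44 to 0.72, 0.4 for Ighg3 against 0 to 0.07 and 0.14 for Ighe against 0.

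In WT, library 2 was at 7.41 FPKM for Ighg2c against 0.77 to 2.26, at 20.05 for Ighv1-78 against 0.96 to 4.24 and at 4.16 for Ighd6-2 against 0. Library 1 was at 14.49 FPKM for Ighv10-3 against 1.13 to 4.76 and at 0.51 for Ighv5-2 against 0. Library 5 was at 1.33 FPKM for Ighg1 against 0.05 to 0.4 and at 2.65 for Ighv1-84 against 0 to 0.52. Ighd2-8 was at 7.61 FPKM in library 3 and Ighd2-3 at 3.14 in library 4, each at 0 in the other WT libraries.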

How the results depend on the processing

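The counts of members called lower were 23 V, 1 D, 4 J and 3 constant genes, beside 3153 genes lower and 862 higher across the table. With a pseudocount of 1 they were 11 V segments, 1486 genes lower and 356 higher, and with a mean of at least 1 FPKM, which tests fewer genes, 11 V segments, 1827 lower and 462 higher. Under that limit 14 of 33 named members were not tested. Quantile normalization gave 1581 genes higher and 2245 lower and shifted the median over all genes tested from -0.11 to 0.10 (log2), with 19 V segments, 1 D segment, 4 J segments and 2 constant genes lower. Adjusted p alone gave 5300 lower and 3138 higher. A sex covariate, which gives the same fold changes as leaving out WT 3 to 5, left 1 constant gene called lower. Without WT 3 to 5, chosen after seeing the data and with fewer samples, 0 constant genes were called lower and 541 genes higher. The cause of the other changes was not tested. With each library left out in turn, V segments called lower were 17 to 34, J 4, D 1 and constant genes 3, with 2880 to 3248 genes lower and 764 to 950 higher among those tested. Dhx9 lies at the 2-fold limit and was not called in 9 alternatives, at log2 fold changes from 0.89 upwards.

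The replicate numbers are shared by the labels, but deviations of same-numbered libraries correlated at only -0.01 to 0.12, and 3 of 5 WT libraries correlated best with their own number, so they share only a number. A fit with the replicate block called 27 V segments, 1 D, 4 J and 3 constant genes lower, and 3107 genes lower and 857 higher across the table. No named member took the opposite sign, though Ighg3 and 4 D segments reached 0.00 when 1 library was left out, and unrounded fragments moved no class mean by more than the spread between libraries. Depth limits the D segments and most V segments, where 1 fragment decides whether a library is above 0.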
